A study of Mus musculus with 5 samples.

Results

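Siglecf-low neutrophils are neutrophils of injured mouse kidney with few or no captured transcripts of the lectin receptor gene Siglecf and growth factor gene Csf1. They were taken as the cells that the deposited annotation labels as immune cells of cluster 5 and that held 0 or 1 UMI of Siglecf plus Csf1 in the raw matrix, a UMI being a unique molecular identifier that stands for 1 captured transcript. In all 1083 cells met this rule, of 1382 cells in cluster 5 and of 23797 annotated cells. The 299 cells of cluster 5 with 2 or more such UMIs are called Siglecf- or Csf1-positive below. Median depths were 2501 to 4838 UMIs per member across the mice. At such depths a count of 0 or 1 does not show that a cell lacked these transcripts. The cells were thus chosen by measured values, the UMIs of both genes and the authors' clustering, so the levels of those genes are given as a description and not as a finding.

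The study measured kidneys of 5 mice after ischemia-reperfusion injury by droplet single-cell RNA sequencing, 3 mice at day 10 (mice 3, 4 and 5) and 2 mice at 48 h (mice 1 and 2). Each mouse gave 1 library of the 10x Genomics 3′ v3.1 chemistry and is 1 replicate. Ischemia-reperfusion injury is the damage that follows when blood flow to an organ is stopped and then restored. All 5 kidneys were injured, so both groups share the injury and neither is an uninjured baseline. The labels used here name no strain, genotype, sex, age or surgical detail for either group. The kept cells numbered 5912, 3909 and 5361 in the day 10 mice and 4895 and 3720 in the 48 h mice. Of kept barcodes, 57 occurred in 2 or more libraries, and no barcode was shared by Siglecf-low cells of different mice.

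Neutrophils are short-lived granulocytes made in the bone marrow, where they fill their granules in a fixed sequence before release into blood. Csf3r, the receptor of the growth factor G-CSF, drives their production, and Cxcr2, a receptor of CXC chemokines, draws them out of marrow and into injured tissue. Retnlg, S100a8, S100a9 and Wfdc21 are high in mature blood neutrophils, while cells that have aged or stayed in tissue gain Cxcr4 or Icam1. In mice, neutrophils that carry Siglecf on their surface have been described in injured kidney and heart and in tumours.

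The cells carried the transcripts of neutrophils. Summed over the members of a mouse and given as counts per 1000000 UMIs (CPM), S100a8, a subunit of the antimicrobial protein calprotectin, was 25391, 27793 and 31257 CPM in the day 10 mice and 68659 and 98904 CPM in the 48 h mice. Cxcr2 was 2084, 1773 and 1854 CPM at day 10 and 2329 and 2483 CPM at 48 h. Averaged over the mice of the higher time, Retnlg was 633 times, S100a9 313 times, S100a8 194 times and Cxcr2 442 times as high as in the annotated cells outside cluster 5. The clustering used these genes, so their presence checks the name and tests nothing. Several defining genes of other granulocytes were at 0, namely Epx, Prg2, Ear1 and Alox15 of eosinophils and Mcpt8, Cpa3, Fcer1a, Ms4a2 and Prss34 of basophils and mast cells. The other 4 of 8 eosinophil genes had UMIs and brought the list to 10.2, 0 and 36.7 CPM at day 10 and 1.01 and 4.76 CPM at 48 h. The other 1 of 6 basophil and mast cell genes brought that list to 0, 4.98 and 2.62 CPM at day 10 and 4.05 and 2.16 CPM at 48 h.

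RNA of other kidney cells was present in the same barcodes and moved with time. All 12 macrophage genes of the marker list had a UMI in the members, and their summed level was 3710, 4349 and 2234 CPM at day 10 and 299 and 214 CPM at 48 h. In the annotated cells outside cluster 5 the same sum was 21036, 30334 and 20625 CPM at day 10 and 2205 and 2583 CPM at 48 h. The 8 dendritic cell genes summed to 809, 135 and 283 CPM at day 10 and 7.09 and 11.2 CPM at 48 h, with Xcr1 and Ccr7 at 0. The 10 proximal tubule genes summed to 2873, 199 and 2040 CPM at day 10 and 1021 and 1134 CPM at 48 h, so only mouse 4 was below the 48 h mice. The 8 monocyte genes summed to 310, 638 and 440 CPM at day 10 and 640 and 495 CPM at 48 h, which overlapped. A UMI of C1qa, C1qb or C1qc, subunits of the macrophage complement protein C1q, was found in 52, 41 and 55 members at day 10 and in 18 and 56 at 48 h. The part of this RNA in the results below was not tested as a cause, but each count of genes was also made in the 861 members without a C1q UMI.

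Siglecf-low neutrophils were a smaller share of the annotated cells at day 10. There were 150, 68 and 135 members in the day 10 mice and 275 and 455 in the 48 h mice. As a share of annotated cells they made up 2.54, 1.74 and 2.52% at day 10 and 5.62 and 12.2% at 48 h, and the groups did not overlap. The 48 h mice themselves differed between each other by more than the day 10 mice did. The quasi-likelihood test of edgeR was run over 22 classes of cells, with each mouse's annotated cells as the total. Siglecf-low neutrophils fell by 1.97 on the log2 scale (SE 0.42, adjusted p = 0.00414). The fall is thus in the share of captured cells and not in cells per kidney. Macrophages of cluster 0 numbered 1856, 1584 and 1753 at day 10 and 514 and 614 at 48 h. Without mouse 2, the 48 h mouse with most neutrophils, the fall was 1.31 (adjusted p = 0.0438), and with TMM factors over the classes the adjusted p was 0.0158. The positive cells were 1.34, 0.563 and 1.42% of annotated cells at day 10 and 1.16 and 1.75% at 48 h, values that overlapped.

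**Figure D1:**
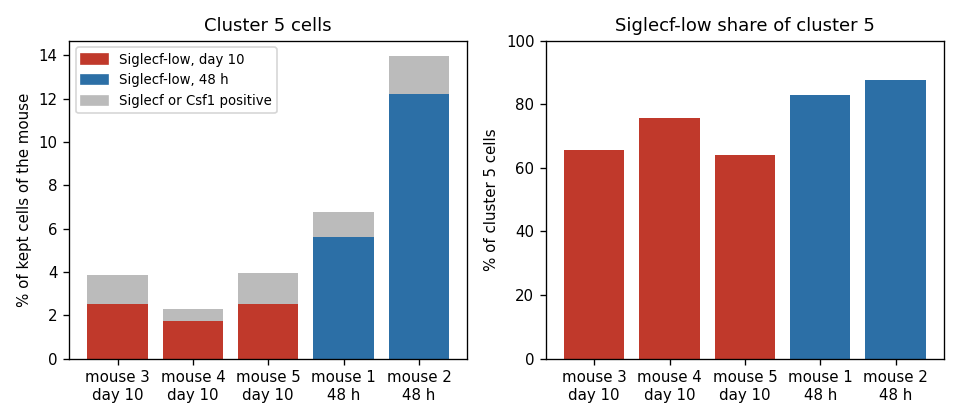
Left, cluster 5 cells as a percentage of annotated cells, 1 stacked bar per mouse, with Siglecf-low cells in colour (day 10 red, 48 h blue) and Siglecf- or Csf1-positive cells in grey. Right, Siglecf-low cells as a percentage of cluster 5. The coloured bars are between 1.74 and 2.54% in the day 10 mice and are 5.62 and 12.2% in the 48 h mice.

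Within cluster 5 the low cells were the smaller share at day 10. They made up 65.5, 75.6 and 64.0% of cluster 5 in the day 10 mice and 82.8 and 87.5% in the 48 h mice, a difference of the means of -16.8 percentage points. Every day 10 mouse was below both 48 h mice. The rule's own UMIs make up this share, so it is a description with no test. The members of the 48 h mice were also deeper, with medians of 2501, 2618 and 2634 UMIs per member at day 10 and 3227 and 4838 UMIs at 48 h. With every cluster 5 cell thinned to 1000 UMIs the difference was -9.22 points, with shares of 83.8, 92.2 and 85.3% at day 10 and 95.2 and 97.5% at 48 h.

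Across the limit of the rule the cells changed by degrees, which is given here as a description. At day 10 Retnlg was 2704 CPM in the 226 cells with 0 rule UMIs, 757 CPM in the 127 cells with 1, 227 CPM in the 65 cells with 2 and 361 CPM in the cells with 3 or more. At 48 h it was 12268 CPM in 561 cells with 0 rule UMIs, 8619 CPM in 169 cells with 1, 6254 CPM in 56 cells with 2 and 3237 CPM in 66 cells with 3 or more. The members just inside the limit, with 1 UMI, thus stood between the cells with 0 and those with 2 for Retnlg at both times. For Cxcr2 the same steps were 2047, 1739, 1756 and 1485 CPM at day 10 and 2401, 2560, 2330 and 2372 CPM at 48 h, so the 48 h cells showed little order. Ltc4s, the synthase of leukotriene C4, was 54.5, 113.6, 110.7 and 155 CPM along these steps at day 10 and 2.7, 5.4, 0 and 14.9 CPM at 48 h.

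The transcriptome of the Siglecf-low cells differed widely between the times. In edgeR's quasi-likelihood test on UMIs summed per mouse, 744 of 5103 genes passed an adjusted p of 0.05, which is 14.6% of those tested. Of these, 320 were higher at day 10 (6.27%) and 424 lower (8.31%), and the median log2 fold change of all genes was 0.03. For 55.8% of genes the CPM of the groups did not overlap. The count moved with the mice, to 376 without mouse 1, 268 without mouse 2 and 236 without mouse 5. It was 529 in the members without a C1q UMI, and 453 of those were among the 744 with the same direction.

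The balance of rises and falls depended on scaling. S100a8 and S100a9 together took 5.09, 5.40 and 6.40% of all UMIs of the members at day 10 and 15.6 and 20.4% at 48 h. TMM factors adjust each library for differences in RNA composition. Without them 1610 genes passed, 1447 higher at day 10 (28.4%) and 163 lower (3.19%). How much of this change came from the share of S100a8 and S100a9 was not tested. The median of all genes was then 0.52 and not 0.03 on the log2 scale. Fold changes below are from the fit with TMM factors, so they lie about that shift below the ratios of the CPM. Each count of called genes in a list below stands beside the shares of all genes tested. These were 6.27% higher and 8.31% lower with TMM factors, and 28.4% and 3.19% without them. For the members without a C1q UMI, 225 of 3889 genes tested were higher and 304 lower.

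Many genes of mature blood neutrophils were lower at day 10. Retnlg, which encodes a resistin-like secreted protein of mature neutrophils, was 1837, 3457 and 1314 CPM at day 10 and 11259 and 11537 CPM at 48 h. All day 10 mice were far below both 48 h mice, and Retnlg fell by 2.84 on the log2 scale (SE 0.34, adjusted p = 0.000783). Ly6g, the surface antigen used to sort mouse neutrophils, was 10.2, 14.9 and 21.0 CPM at day 10 and 93.2 and 139.7 CPM at 48 h, and fell by 3.38 (SE 0.36, adjusted p = 0.00048). Ly6g was seen in few cells, with 4, 3 and 8 UMIs in all members of the day 10 mice and 92 and 323 UMIs in those of the 48 h mice. Wfdc21, a small secreted whey acidic protein, was 430.1, 588 and 506 CPM at day 10 and 1536 and 2706 CPM at 48 h. It fell by 2.54 (SE 0.27, adjusted p = 0.00048).

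S100a9, the partner of S100a8 in calprotectin, was 25528, 26244 and 32709 CPM at day 10 and 86978 and 105084 CPM at 48 h. It fell by 2.23 on the log2 scale (SE 0.27, adjusted p = 0.000805), and S100a8 fell by 2.04 (SE 0.28, adjusted p = 0.00116). Without mouse 5 the S100a8 fall was 2.15 with an adjusted p of 0.0552. Cystatin-like genes of the stefin A cluster, which are near copies of each other and so uncertain in mapping, were lower too. Stfa2l1 was 583, 448 and 671 CPM at day 10 and 1419.6 and 2460.3 CPM at 48 h. Cstdc5 was 28.0, 9.96 and 10.5 CPM at day 10 and 128 and 467 CPM at 48 h. Stfa2 had 0, 0 and 1 UMI in the day 10 mice and 36 and 741 in the 48 h mice, a rate 229.6 times as high at 48 h with a counting interval from 41.1 to 9081. Mouse 2 held most of these UMIs, and without it the ratio was 35.6 with an interval from 5.99 to 1443. The Stfa2 call was lost without mouse 5 (adjusted p = 0.068).

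Of the 16 neutrophil identity genes 8 fell and 0 rose, with a median log2 fold change of -0.86 beside 0.03 for all genes tested, and without TMM factors 5 fell. Of the 18 late maturation genes 9 fell and 0 rose (median -1.01), among them Ifitm1, Slpi, Ccl6 and Gda. Without TMM factors 6 of the late maturation genes fell and 2 rose. In members without a C1q UMI 12 identity genes and 9 late maturation genes fell, and 0 of either list rose. Of all 3889 genes tested in those members 304 fell and 225 rose. These lists were set with earlier results of the data known.

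The growth factor and chemokine receptors that define the lineage moved little beside those genes. Csf3r was 2015, 1923 and 2006 CPM at day 10 and 1915 and 2099 CPM at 48 h. The groups overlapped, and its log2 fold change of -0.47 did not pass (SE 0.19, adjusted p = 0.125). Without TMM factors the Csf3r value was 0.02. Cxcr2 was lower by 0.79 in the fit (SE 0.20, adjusted p = 0.0237), a call that was lost without TMM factors (-0.30, adjusted p = 0.24), without mouse 1 (adjusted p = 0.0527), without mouse 2 (adjusted p = 0.152) and without mouse 5 (adjusted p = 0.123).

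**Figure D2:**
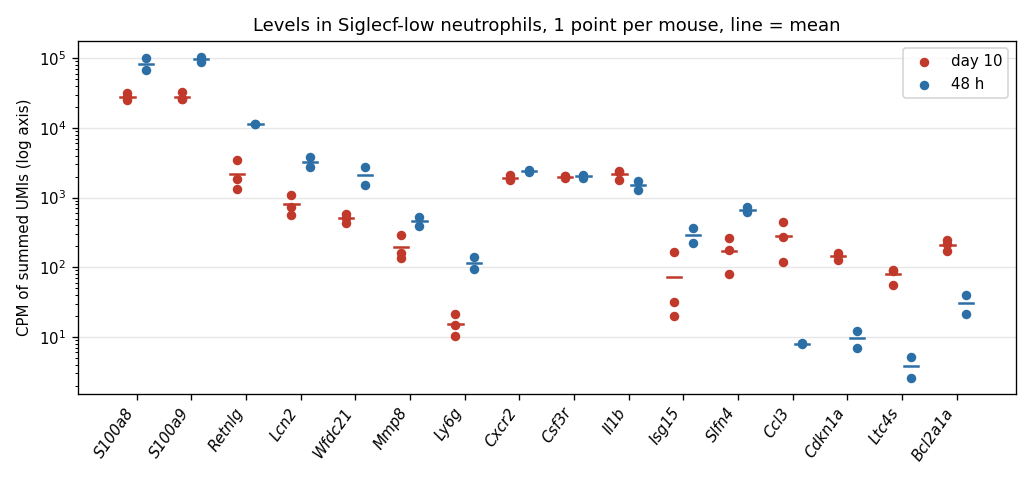
Summed level in CPM, on a log axis, of 16 genes in Siglecf-low neutrophils, 1 point per mouse (day 10 red, left; 48 h blue, right) with a line at the mean. Retnlg lies between 1314 and 3457 CPM in the day 10 mice and at 11259 and 11537 CPM in the 48 h mice, while the Csf3r points overlap and those of Ccl3, Cdkn1a and Ltc4s are higher at day 10.

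Receptors for bacterial and complement products were lower at day 10. Fpr1, a receptor of formylated peptides, was 53.4, 79.7 and 44.6 CPM at day 10 and 197 and 301 CPM at 48 h (log2 fold change -2.61, SE 0.29, adjusted p = 0.00057). Its relative Fpr2 was lower by 1.38 with an adjusted p of 0.0109, which became 0.0737 without mouse 5. C5ar1, the receptor of complement fragment C5a, was 272, 179 and 246 CPM at day 10 and 395 and 429 CPM at 48 h (log2 fold change -1.26, SE 0.22, adjusted p = 0.00459). Cxcr1, a second CXC chemokine receptor, was 17.8, 0 and 13.1 CPM at day 10 and 57.8 and 70.0 CPM at 48 h (adjusted p = 0.00205). Ccrl2, an atypical receptor that presents the chemoattractant chemerin, went the other way, with 48.3, 184 and 176 CPM at day 10 and 13.2 and 11.2 CPM at 48 h (log2 fold change 2.97, SE 0.48, adjusted p = 0.00326). Of the 12 chemoattractant receptor genes tested 5 fell and 1 rose (median -0.65), and without TMM factors 4 fell and 2 rose.

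Genes linked with aged or tissue-resident neutrophils were not called as a group. Cxcr4, the receptor that returns neutrophils to the marrow, was 397, 249 and 212 CPM at day 10 and 184 and 109 CPM at 48 h. Its CPM did not overlap, but the log2 fold change of 0.55 did not pass (SE 0.29, adjusted p = 0.228). Icam1, an adhesion molecule, was 78.9, 79.7 and 34.1 CPM at day 10 and 27.4 and 17.3 CPM at 48 h (log2 fold change 1.10, adjusted p = 0.0715). Cd274, which encodes the checkpoint ligand PD-L1, was 99.2, 34.9 and 23.6 CPM at day 10 and 12.2 and 5.19 CPM at 48 h and rose by 2.38 (SE 0.60, adjusted p = 0.0239). In mouse 3, 1 cell held 21 of the 39 Cd274 UMIs, and the call was lost without mouse 3 (1.33, adjusted p = 0.117) and without mouse 2 (1.72, adjusted p = 0.156). Of the 14 aging and activation genes 1 rose and 2 fell (median -0.22), and without TMM factors 3 rose and 0 fell. The shares over all genes were 6.27% and 8.31%, and without TMM factors 28.4% and 3.19%.

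The secondary and tertiary granules are filled late in the marrow, the primary granules early. Lcn2, the iron-siderophore binder lipocalin 2, was 562, 732 and 1101 CPM at day 10 and 2763 and 3766 CPM at 48 h (log2 fold change -2.49, SE 0.28, adjusted p = 0.000706). Mmp8, neutrophil collagenase, was 135, 294 and 163 CPM at day 10 and 393 and 531 CPM at 48 h (-1.75, SE 0.29, adjusted p = 0.00361). Both sets of values were apart. In the annotated cells outside cluster 5 Lcn2 averaged 864 CPM over the day 10 mice and 1384 CPM over the 48 h mice. Its day 10 mean in the members, 799 CPM, was thus no higher than outside. The part of RNA of other cells in the Lcn2 values was not tested. Padi4, the enzyme that citrullinates histones when neutrophils cast extracellular traps, was 58.5, 19.9 and 26.2 CPM at day 10 and 203 and 162 CPM at 48 h (-2.72, SE 0.32, adjusted p = 0.000741).

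Mmp9, the tertiary granule gelatinase, was 2685, 1908 and 2297 CPM at day 10 and 3643 and 3019 CPM at 48 h, a smaller fall of 0.98 (SE 0.22, adjusted p = 0.0142). The Mmp9 call was lost without TMM factors (adjusted p = 0.0923), without mouse 1 (adjusted p = 0.0598) and without mouse 5 (adjusted p = 0.0954). Of 9 secondary granule genes tested 5 fell and 0 rose (median -0.87), and of 14 genes of tertiary granules and secretory vesicles 9 fell and 0 rose (median -1.25). Without TMM factors 4 secondary granule genes fell and 1 rose, and 6 of the tertiary list fell and 0 rose. With members holding a C1q UMI left out, 4 secondary and 9 tertiary list genes fell and 0 rose. Of 6 primary granule genes tested only Lyz2, lysozyme, fell (median of the 6, 0.03). In members without a C1q UMI 2 primary granule genes fell and the median was -0.67, and without TMM factors 1 fell, 1 rose and the median was 0.52. Differences between the granule classes were not tested. Elane, neutrophil elastase, had no UMI in any member.

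Secondary granule transcripts made in the marrow were low in both groups for Camp, Ltf and Ngp. Camp, cathelicidin, had no UMI in the day 10 members and 4.05 and 0.865 CPM in the 48 h mice, and Ltf, lactoferrin, was 7.63, 9.96 and 5.24 CPM at day 10 and 5.07 and 0.432 CPM at 48 h. Ngp, another secondary granule protein, was 5.09, 9.96 and 2.62 CPM at day 10 and 67.9 and 24.2 CPM at 48 h, and 1 cell of mouse 1 held 61 of its 67 Ngp UMIs. After thinning to 1000 UMIs, 4 of 353 members at day 10 and 9 of 730 members at 48 h had a UMI of any of these 3 genes. The whole list of 14 immature and cycling genes summed to 237, 3163 and 485 CPM at day 10 and 375 and 461 CPM at 48 h, of which Chil3 made up 107, 2979 and 304 CPM at day 10 and 125 and 301 CPM at 48 h.

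Chemokine and cytokine genes did not move together. Il1b, interleukin 1 beta, was 2372, 2287 and 1796 CPM at day 10 and 1733 and 1285 CPM at 48 h (log2 fold change 0.06, SE 0.22, adjusted p = 0.877). Ccl6, a chemokine of myeloid cells, fell by 1.13 (adjusted p = 0.00746, and 0.068 without mouse 5). Ccl3, a chemokine that draws monocytes and neutrophils, was 440.2, 119.6 and 275 CPM at day 10 and 8.11 and 7.78 CPM at 48 h, and rose by 4.71 (SE 0.50, adjusted p = 0.00048). The rise rested on few cells. At day 10 a Ccl3 UMI was found in 15 of 150, 9 of 68 and 17 of 135 members, and 1 cell in each mouse held 86.1, 58.3 and 60% of that mouse's Ccl3 UMIs. Without that cell in each mouse, the level was 61.8, 50.2 and 112.9 CPM at day 10 and 6.10 and 6.94 CPM at 48 h, and the groups still did not overlap.

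Cxcl2, a ligand of Cxcr2, showed how a single cell could set a value. It was 242, 1873 and 354 CPM at day 10 and 754 and 412 CPM at 48 h. In mouse 4 a cell of 1639 UMIs held 294 of the 376 Cxcl2 UMIs, and the level without it was 412 CPM. The Cxcl2 log2 fold change was 0.00 (SE 0.64, adjusted p = 0.998). Without mouse 4 it was -1.40 (adjusted p = 0.0109), and in members with at least 2000 UMIs it was -1.16 (adjusted p = 0.0195). Of the 11 cytokine and chemokine genes tested 1 rose and 1 fell (median 0.06), and without TMM factors 5 rose and 1 fell. With members holding a C1q UMI left out, 1 rose and 2 fell. Among all genes 6.27% rose and 8.31% fell, and without TMM factors 28.4% rose and 3.19% fell.

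Interferon-induced genes were lower in the Siglecf-low cells at day 10. These genes answer type I and type II interferons through STAT and IRF transcription factors, and a subset of neutrophils expresses them in blood and tissue. Of 22 interferon response genes tested, out of 28 in the list, 12 fell and 0 rose, with a median log2 fold change of -1.45 beside 0.03 for all genes. Without TMM factors 10 fell and 0 rose, and in members without a C1q UMI 13 fell. Isg15, a ubiquitin-like protein, and Ifitm3, a membrane protein that hinders virus entry, are shown with the 300 bases around their starts (250 before and 50 after, RefSeq, GRCm38.p6) because both were called lower and both hold matches to an interferon-type motif. The motif is a pair of GAAA units with any 2 bases between them, searched on both strands. Capitals mark its matches, overlaps included, and the promoters lie at chr4:156200769-156201068 and chr7:141010695-141010994, both on the minus strand and written 5′ to 3′ along the gene:
Isg15: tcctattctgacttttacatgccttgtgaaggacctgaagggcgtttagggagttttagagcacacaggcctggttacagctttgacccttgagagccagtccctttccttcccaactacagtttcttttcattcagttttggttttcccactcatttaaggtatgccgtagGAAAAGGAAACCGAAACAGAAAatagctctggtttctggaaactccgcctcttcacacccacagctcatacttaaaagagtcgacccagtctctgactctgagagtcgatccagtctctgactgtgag
Ifitm3: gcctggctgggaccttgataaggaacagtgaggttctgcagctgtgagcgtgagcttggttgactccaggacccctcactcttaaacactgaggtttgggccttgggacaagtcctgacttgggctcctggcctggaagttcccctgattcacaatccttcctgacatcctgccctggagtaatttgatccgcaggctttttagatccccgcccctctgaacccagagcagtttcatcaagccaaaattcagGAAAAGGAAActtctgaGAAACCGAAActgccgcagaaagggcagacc
On either strand the motif occurred in 4 of the 9 called genes with a promoter in the RefSeq table (Isg15, Ifitm3, Slfn5 and Trim30a), in 13 of 22 genes of the whole list with one, and in 3.99% of 27025 genes. A match describes the letters in this window and nothing of binding.

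Isg15 itself was 165, 19.9 and 31.5 CPM at day 10 and 359.7 and 221 CPM at 48 h (log2 fold change -2.30, SE 0.52, adjusted p = 0.0149). Mouse 3 was several times the other day 10 mice, and the Isg15 call was lost without mouse 5 (adjusted p = 0.103) and with the DESeq2 Wald test (adjusted p = 0.172). Slfn4, a schlafen protein of myeloid cells, was 262, 79.7 and 178 CPM at day 10 and 611 and 724 CPM at 48 h (-2.34, SE 0.33, adjusted p = 0.0016). Ifitm3 was 629, 229 and 443 CPM at day 10 and 1429 and 1601 CPM at 48 h (-2.23, SE 0.32, adjusted p = 0.00165), and its neighbour Ifitm1 was 2420.0, 1151 and 3094 CPM at day 10 and 7664 and 10109.5 CPM at 48 h. Genes of the Ifitm family are alike in sequence, so reads may be split among them. Ifi27l2a was 122, 4.98 and 131 CPM at day 10 and 803 and 558 CPM at 48 h (-3.28, SE 0.49, adjusted p = 0.00195), with an adjusted p of 0.0712 in the DESeq2 test.

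Not every interferon gene differed. Ifit1 was 81.4, 4.98 and 7.87 CPM at day 10 and 66.9 and 72.2 CPM at 48 h (log2 fold change -1.41, adjusted p = 0.118), and Ifit3 was 119.6, 4.98 and 0 CPM at day 10 and 46.6 and 41.1 CPM at 48 h (adjusted p = 0.819). In mouse 3, 1 cell of 3724 UMIs held 19 of 32 Ifit1 UMIs and 32 of 47 Ifit3 UMIs. Counted per cell after thinning to 1000 UMIs, 18.7, 11.8 and 15.6% of members had 5 or more UMIs of the interferon list at day 10, and 44.7 and 44.6% did at 48 h. The positive cells were at 12.7, 4.55 and 19.7% at day 10 and 49.1 and 44.6% at 48 h by the same count.

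Some genes of survival and of the p53 response were higher at day 10. Cdkn1a, the cell cycle inhibitor p21, was 150.1, 159 and 126 CPM at day 10 and 12.2 and 6.92 CPM at 48 h. The groups were far apart, and Cdkn1a rose by 3.56 on the log2 scale (SE 0.30, adjusted p = 6.3e-05). It was spread over cells, with a UMI in 27 of 150, 17 of 68 and 28 of 135 members at day 10 and in 8 of 275 and 12 of 455 at 48 h. Bax, an executor of mitochondrial apoptosis, was 115, 144 and 118 CPM at day 10 and 31.4 and 23.3 CPM at 48 h (log2 fold change 1.76, SE 0.24, adjusted p = 0.00132). In the macrophages of cluster 0 both genes were lower at day 10 than at 48 h. Bax was there 164, 168 and 149 CPM at day 10 and 316 and 274 CPM at 48 h. Cdkn1a was there 89.0, 98.9 and 58.8 CPM at day 10 and 234 and 122 CPM at 48 h. The part of RNA of other cells in the rises of Cdkn1a and Bax in the members was not tested.

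Bcl2a1a, a survival factor of the BCL2 family, was 173, 249 and 212 CPM at day 10 and 40.5 and 21.2 CPM at 48 h (log2 fold change 2.38, SE 0.29, adjusted p = 0.000805). The near-identical copies Bcl2a1b (2.18, adjusted p = 0.00336) and Bcl2a1d (2.43, adjusted p = 0.00646) moved alike, and how reads split among the 3 copies is uncertain. At day 10 Bcl2a1b was 282, 418 and 380 CPM in the members and 607, 780 and 647 CPM in the macrophages of cluster 0. At 48 h Bcl2a1b was 90.2 and 32.4 CPM in the members and 336 and 300 CPM in those macrophages. Bcl2a1a at day 10 was lower in those macrophages than in the members, at 80.6, 86.8 and 93.5 CPM. It was 61.2 and 58.6 CPM in the macrophages at 48 h. Of 17 survival and apoptosis genes tested 7 rose and 0 fell, with genes of both directions of effect among them, since Bax, Bbc3 and Pmaip1 promote death and the Bcl2a1 copies oppose it. Mcl1, the main survival factor of neutrophils, was 1644, 1778 and 1534 CPM at day 10 and 1454 and 1288 CPM at 48 h (-0.18, adjusted p = 0.549). The median of the 17 was -0.04. Of 9 p53 targets tested 4 rose (Cdkn1a, Bax, Bbc3 and Pmaip1) and 0 fell, with a median of 0.70. In members without a C1q UMI 5 survival and apoptosis genes and 3 p53 targets rose, and 0 fell. Without TMM factors 7 and 5 rose and 0 fell. Bbc3 and Pmaip1 did not pass without mouse 2 (adjusted p = 0.239 and 0.216) or without mouse 5 (adjusted p = 0.0651 and 0.0704), and Bbc3 also not without mouse 1 (adjusted p = 0.154) and Pmaip1 not without mouse 4 (adjusted p = 0.0544).

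Some genes known from Siglecf-bearing neutrophils were higher even in these low cells. Ltc4s was 91.6, 89.7 and 55.1 CPM at day 10 and 5.07 and 2.59 CPM at 48 h, and rose by 4.00 (SE 0.43, adjusted p = 0.00048). It was found in 18, 12 and 14 members of the day 10 mice and in 5 and 6 members of the 48 h mice. Of 13 genes tested in the list of that state 4 rose (Ltc4s, Cd274 and Ccl3 among them), 2 fell (Ctsd and Spp1) and the median was 0.65. Ctsd, the lysosomal protease cathepsin D, overlapped between the groups at 1870.4, 1161 and 1411 CPM at day 10 and 2349.8 and 1751 CPM at 48 h. Its call was lost without TMM factors (adjusted p = 0.175), without mouse 1 (adjusted p = 0.152) and without mouse 5 (adjusted p = 0.143). Without TMM factors 9 of that list rose and 1 fell, and with members holding a C1q UMI left out 4 rose and 3 fell. Spp1 overlapped between the groups at 2112, 1504 and 1793 CPM at day 10 and 6267 and 1980.4 CPM at 48 h, was 0.128 times its level outside cluster 5, and did not pass without mouse 1 (adjusted p = 0.206) or mouse 5 (adjusted p = 0.101). Within the limit set by the rule, Siglecf was 81.4, 69.7 and 102 CPM at day 10 and 28.4 and 29.4 CPM at 48 h.

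Further rises were those of Scimp, an adaptor of antigen-presenting cells, with 163, 64.8 and 178 CPM at day 10 and 11.1 and 12.97 CPM at 48 h (log2 fold change 3.06, SE 0.38, adjusted p = 0.000963), and of Selenos, a selenoprotein of the endoplasmic reticulum (1.97, SE 0.24, adjusted p = 0.000881). Hcar2, the receptor of niacin and ketone bodies, rose by 1.66 (adjusted p = 0.014), and did not pass without mouse 2 (adjusted p = 0.148) or in members without a C1q UMI (adjusted p = 0.122). Further falls were those of Dpep2, a dipeptidase that cleaves leukotriene D4 (2.54, 14.9 and 7.87 CPM at day 10 and 79.0 and 104 CPM at 48 h), Ifitm6 (-3.14), the lectin-like receptor gene Klra17 (-2.76) and Plin2. Plin2, the coat protein of lipid droplets, was 89.1, 24.9 and 152 CPM at day 10 and 635 and 425 CPM at 48 h (-2.91, SE 0.39, adjusted p = 0.00116). In the macrophages of cluster 0 Plin2 was 133, 125 and 185 CPM at day 10 and 602 and 523 CPM at 48 h.

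**Figure D3:**
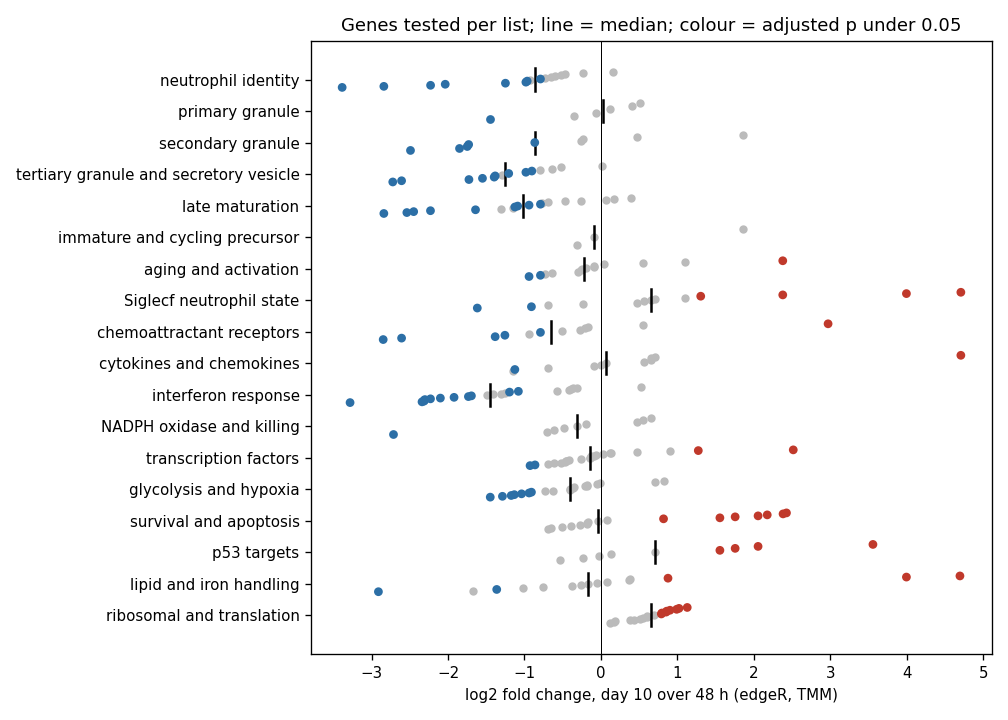
Log2 fold change of day 10 over 48 h (edgeR with TMM factors) for each tested gene of 18 gene lists, 1 point per gene, with a black line at the list's median. Red points passed an adjusted p of 0.05 as higher at day 10 and blue points as lower, grey points did not pass, and the interferon list has 12 blue and 0 red points.

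Of 20 glycolysis and hypoxia genes tested 7 fell and 0 rose (median -0.40), such as the lactate exporter Slc16a3 with 214, 64.8 and 134 CPM at day 10 and 293 and 284 CPM at 48 h (-1.45, adjusted p = 0.0135, and 0.0957 without mouse 5). Without TMM factors 4 fell and 2 rose in that list and its median was 0.08. Of 18 ribosomal and translation genes 8 rose and 0 fell (median 0.65), such as Rps18 with 636, 752 and 655 CPM at day 10 and 255 and 201 CPM at 48 h (1.13, adjusted p = 0.00515, and 0.0953 without mouse 2). Without TMM factors all 18 rose, and in members without a C1q UMI 5 did. Rps18 in the members was 0.319 times its level outside cluster 5, and the part of RNA of other cells was not tested.

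Among the lipid and iron genes 3 rose and 2 fell of 15 tested (median -0.16). With members holding a C1q UMI left out, 3 rose and 3 fell. Fth1, the ferritin heavy chain, was 23312, 20440.0 and 20149.9 CPM at day 10 and 9597 and 7411 CPM at 48 h. Its log2 fold change of 0.88 passed (adjusted p = 0.0308), but not without mouse 1 (adjusted p = 0.0514), mouse 2 (adjusted p = 0.174), mouse 3 (adjusted p = 0.138) or mouse 5 (adjusted p = 0.176). Alox5ap, which helps 5-lipoxygenase to make leukotrienes, was 1308, 1186 and 1345 CPM at day 10 and 2188 and 2611 CPM at 48 h (-1.36, SE 0.20, adjusted p = 0.00203), opposite to Ltc4s further along the same pathway. Apoe, a lipoprotein of macrophages, was 1389, 2934 and 1303 CPM at day 10 and 53.7 and 50.6 CPM at 48 h (4.70, adjusted p = 6.3e-05). Its level in the members was 0.125 times that outside cluster 5. An Apoe UMI was found in 122 of 150, 63 of 68 and 118 of 135 members at day 10 and in 23 of 275 and 51 of 455 at 48 h, and the part of macrophage RNA in this rise was not tested.

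Of 23 transcription factor genes tested 2 rose and 2 fell (median -0.14), and without TMM factors 4 rose and 0 fell. With members holding a C1q UMI left out, 3 rose and 0 fell. Over all genes tested 6.27% rose and 8.31% fell, and without TMM factors 28.4% and 3.19% did. So few calls do not set this list apart from all genes. Bhlhe40 was 224, 219 and 168 CPM at day 10 and 50.7 and 68.8 CPM at 48 h (log2 fold change 1.27, SE 0.24, adjusted p = 0.00709, and 0.0776 without mouse 1). The stress-induced factor Atf3 rose by 2.52 (adjusted p = 0.0204) but not without mouse 2 (adjusted p = 0.13), mouse 3 (adjusted p = 0.0783) or mouse 5 (adjusted p = 0.0998). Klf2 and Egr1 were lower by 0.93 and 0.86, and neither passed without TMM factors (adjusted p = 0.138 and 0.219), without mouse 2 (adjusted p = 0.129 and 0.132) or without mouse 5 (adjusted p = 0.0892 and 0.102). Egr1 was also lost without mouse 1 (adjusted p = 0.103) and without mouse 4 (adjusted p = 0.0563). Of 9 genes of the NADPH oxidase and killing only Padi4 fell and 0 rose (median -0.32), and without TMM factors 1 fell and 3 rose. The oxidase subunit Cybb was 71.3, 129.5 and 159.9 CPM at day 10 and 74.98 and 53.2 CPM at 48 h and did not pass (adjusted p = 0.327).

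The Siglecf-low cells were not uniform at day 10. To compare cells of unequal depth, each member was thinned to 1000 UMIs, and no member was shallower. A Retnlg UMI was then found in 46 of 150 (30.7%), 30 of 68 (44.1%) and 34 of 135 members (25.2%) at day 10 and in 190 of 275 (69.1%) and 325 of 455 members (71.4%) at 48 h. Without thinning the shares were 39.3, 44.1 and 33.3% at day 10 and 78.9 and 81.5% at 48 h. No T or natural killer cell of cluster 10 had a Retnlg UMI after thinning (0 of 251 at day 10 and 0 of 83 at 48 h, with exact 95% upper limits of 1.46 and 4.35%, which cover counting error only), at median depths of 5558 and 5402 UMIs before it. Before thinning the cluster 10 share was 0% at day 10 and 2.41% at 48 h. In S1 proximal tubule cells, 0 of 814 at day 10 and 7 of 478 at 48 h (1.46%) had a Retnlg UMI after thinning, and 0.123% at day 10 and 6.28% at 48 h had one before it, at median depths of 11729 UMIs at day 10 and 6339 UMIs at 48 h. The shares in the Siglecf-low cells were far above these. S100a8 plus S100a9 took a median of 27.5, 22 and 41 of 1000 UMIs per member at day 10 and 137 and 191 at 48 h. The range from the first to the third quartile of the members was 6 to 74.5, 4.75 to 74.25 and 8.50 to 98.0 in the day 10 mice and 80 to 193.5 and 130 to 249 in the 48 h mice.

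**Figure D4:**
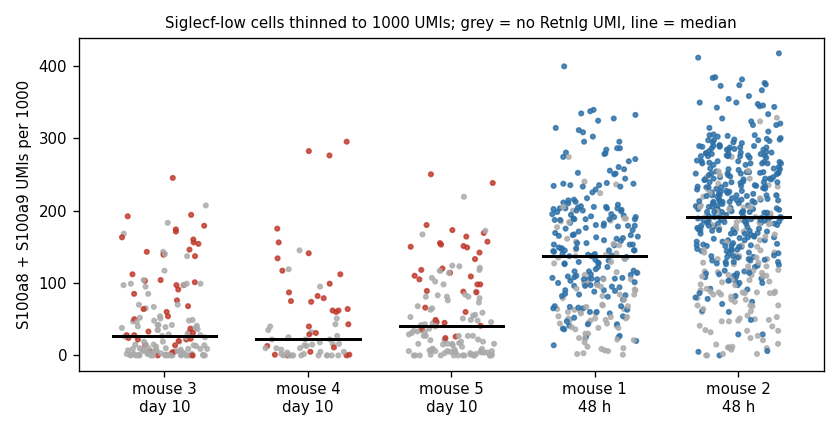
UMIs of S100a8 plus S100a9 per 1000 UMIs in each Siglecf-low cell, by mouse, with a black line at the median. Coloured points (day 10 red, 48 h blue) are cells with a Retnlg UMI after thinning and grey points cells without, and the medians are 27.5, 22 and 41 in the day 10 mice and 137 and 191 in the 48 h mice.

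Split by a Retnlg UMI at 1000 UMIs, a division chosen after the values were seen and given with no test, the members fell into 110 cells with and 243 without at day 10 and 515 with and 215 without at 48 h. Ccl3 and Cdkn1a were higher in the day 10 cells without Retnlg than in those with it. Ccl3 summed to 15.7 CPM in day 10 cells with Retnlg and 6.70 CPM in such 48 h cells, and to 452 CPM in day 10 cells without Retnlg and 11.8 CPM in such 48 h cells. Cdkn1a was 47.1 CPM at day 10 and 7.49 CPM at 48 h in cells with Retnlg, and 189 CPM at day 10 and 11.8 CPM at 48 h in cells without. After thinning, a UMI of Cdkn1a or Ccl3 was found in 52 of the 243 day 10 cells without Retnlg. It was found in 2 of the 110 with it, both of mouse 4. By mouse, Cdkn1a was 0, 116 and 30.7 CPM in day 10 cells with Retnlg and 214, 205 and 159 CPM in those without. As given above, 1 cell in each day 10 mouse held 86.1, 58.3 and 60% of its Ccl3 UMIs. The split also followed the rule, since 80.9% of day 10 cells with Retnlg and 56.4% of those without held 0 rule UMIs.

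Other time differences were seen on both sides of the split. Bcl2a1a was 204 CPM at day 10 and 20.5 CPM at 48 h in cells with Retnlg, and 204 CPM at day 10 and 48.5 CPM at 48 h in cells without. S100a8 was 45301 CPM at day 10 and 99886 CPM at 48 h in cells with Retnlg, and 19868 CPM at day 10 and 56555 CPM at 48 h in cells without. Il1b was 3055, 2833 and 3181 CPM in day 10 cells with Retnlg and 1740.1 and 1302 CPM in such 48 h cells. In cells without Retnlg the Il1b values were 2079, 1710.2 and 1319 CPM at day 10 and 1711 and 1225 CPM at 48 h, which overlapped. Csf3r in cells with Retnlg was 2733, 2251 and 2731 CPM at day 10 and 1857 and 1929 CPM at 48 h, and in cells without it was 1708, 1577 and 1756 CPM at day 10 and 2084 and 2699.7 CPM at 48 h.

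**Figure D5:**
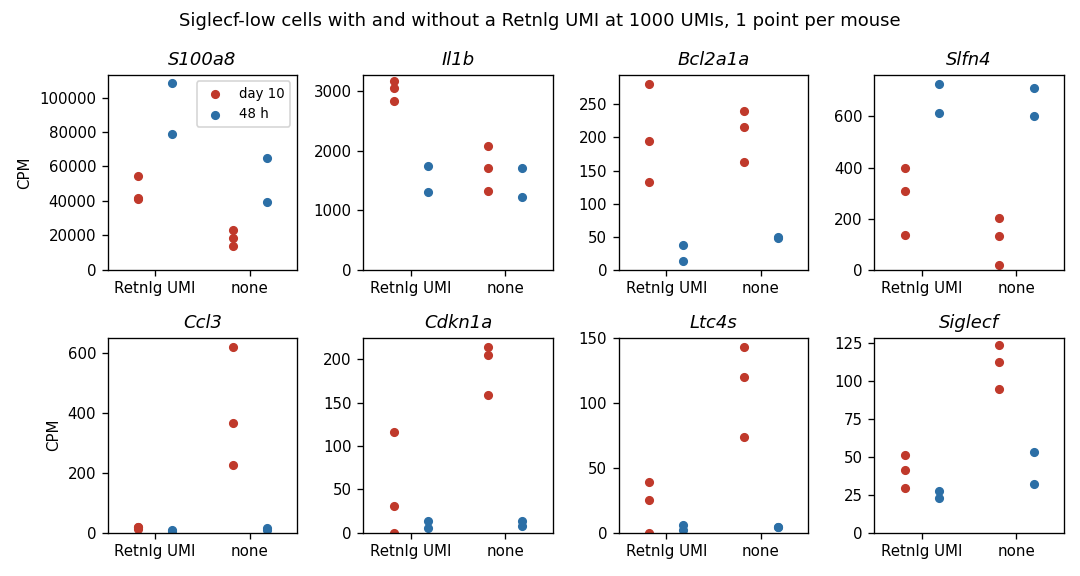
Level in CPM of 8 genes in Siglecf-low cells with and without a Retnlg UMI after thinning to 1000 UMIs, 1 point per mouse (day 10 red, left; 48 h blue, right). Ccl3, Cdkn1a and Ltc4s are high in the day 10 cells without a Retnlg UMI, while S100a8 is lower at day 10 in both kinds of cell. The Ccl3 values rest on few cells, since 1 cell in each day 10 mouse held 86.1, 58.3 and 60% of its Ccl3 UMIs.

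Whether the change with time was particular to the Siglecf-low cells was tested as the interaction of time with the 2 subsets of cluster 5, with the mouse as a block. Of 4832 genes tested 3 passed (0.0621%), and 269 had an unadjusted p under 0.05. The 3 were the hemoglobin genes Hbb-bs, Hba-a1 and Hba-a2, and none passed when cells with 10 or more hemoglobin UMIs were left out (257 at an unadjusted p under 0.05). No gene of the neutrophil, granule, interferon or p53 lists passed in the main test. For Retnlg, the positive cells had 187, 439 and 405 CPM at day 10 and 3396 and 5485 CPM at 48 h, and the difference in log2 fold change, low minus positive, was 1.10 (adjusted p = 0.546). For Ccl3 the positive cells had 143, 277 and 313 CPM at day 10 and 83.9 and 26.8 CPM at 48 h, and the difference was 2.82 (adjusted p = 0.365). Retnlg passed with members of 0 rule UMIs, without mouse 5 and without a filter on low counts, and Ccl3 passed without that filter. Of other genes in the 18 gene lists, Ccrl2 passed with 0 rule UMIs and without mouse 3. Cd14 passed with 0 rule UMIs and without mouse 4, and Ccl4 without mouse 3. Slpi and Cxcl2 passed in cells without a C1q UMI. A p that misses the threshold does not show that the subsets changed alike.

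The levels of the low and positive cells at 1 time are set by the rule and the clustering and are side by side only as a description. At day 10 Lcn2 was 562, 732 and 1101 CPM in low cells and 291, 439 and 678 CPM in positive cells, and at 48 h it was 2763 and 3766 CPM in low cells and 1792 and 2251 CPM in positive cells. The share of cells with a Retnlg UMI at 1000 UMIs in positive cells was 6.33, 18.2 and 6.58% at day 10 and 56.1 and 53.8% at 48 h. The 48 h positive cells thus held Retnlg more often than the day 10 Siglecf-low cells of every mouse.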

How the data were processed

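Each of the 5 kidneys gave a deposited matrix of UMI counts over 32285 genes and 5434 to 8669 barcodes. The kept cells are a part of these barcodes. Per the submitters' processing notes the tools were Cell Ranger 6.0.2 and Seurat 4.0.5 with mm10, while the matrix headers name Cell Ranger 6.0.0. The authors' deposited annotation gave each kept cell its cell type, cluster and mitochondrial percent. No doublet caller was run here, and whether doublets had been removed is not given in the sources used here. UMIs of Siglecf-low cells were summed per mouse (200734 to 392972 at day 10 and 986893 and 2312677 at 48 h) and tested with edgeR 4.0.16 in R 4.3.3 by the quasi-likelihood test after filterByExpr and TMM scaling, with Benjamini-Hochberg adjusted p and a threshold of 0.05. The interaction fit had terms for mouse, subset and subset by time. DESeq2 1.42.0 was an alternative. On simulated counts for this comparison (5103 genes), 99 of 100 genes changed by a log2 of 2 and 100 of 100 changed by 3 were recovered, with 6 false calls. The simulation gave every gene the same spread between mice and changed only well-expressed genes. Its recovery therefore does not carry over to genes of few UMIs or of larger spread. Members and gene lists were chosen with earlier results of these data known. Genes were named by size of change among those past the threshold with non-overlapping CPM, an average log2 CPM of at least 6 and at least 0.5 times the level outside cluster 5 (10 in each direction), by up to 4 in each direction per list, and from a set list of markers. Genes outside this rule (Chil3, Ifit3, Mcl1, Cybb, Elane, Slpi and Gda among them) were chosen after their values were seen. Replicates are separate mice.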

Additional observations from a re-analysis of the deposited data

Results flagged for a closer look

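The time effect of 3 hemoglobin genes differed between Siglecf-low and Siglecf- or Csf1-positive neutrophils in the test of the difference itself. The log2 fold change of day 10 over 48 h in low cells minus that in positive cells was -6.62 for Hbb-bs (adjusted p = 3.01e-06), -7.53 for Hba-a2 (adjusted p = 0.00123) and -6.04 for Hba-a1 (adjusted p = 0.00224). Hbb-bs was 50.9, 0 and 15.7 CPM in low cells at day 10 and 4773 and 4129 CPM at 48 h, and 52.1, 0 and 26.4 CPM in positive cells at day 10 and 74.0 and 43.5 CPM at 48 h. Of the 730 Siglecf-low cells at 48 h, 4 held 23765 of the 24033 hemoglobin UMIs, 2 of them in each mouse, while no other low cell at 48 h held more than 4. Without cells of 10 or more hemoglobin UMIs, 0 genes passed, and 257 had an unadjusted p under 0.05. Hba-a1 and Hba-a2 are near-identical copies, so the split of reads between them is uncertain.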

How the results depend on the processing

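The count of genes changed in Siglecf-low neutrophils was 310 in members with 0 rule UMIs, 1610 without scaling factors, 344 with equal numbers of cells and counts per mouse, and 236 to 865 when each mouse was left out in turn. The cause was not tested for the setting without scaling factors. Fewer cells or mice entered the other fits. With 1 mouse left at 48 h, that mouse was assumed to vary like those at day 10. The DESeq2 test called 518 genes, 506 of them shared in direction. The count of genes with a different time effect was 9 without a filter on low counts, 10 with 0 rule UMIs, 0 without cells of 10 or more hemoglobin UMIs, 5 without C1q UMIs, and 3 to 6 when each mouse was left out. The share of low cells in cluster 5 differed by -9.22 points after thinning to 1000 UMIs and by -14.5 to -20.4 when each mouse was left out. The fall in cell number relative to total cells kept its direction under every alternative run, from -1.31 to -2.55. It kept its call in every alternative with 2 mice at 48 h. The exclusion of cells by hemoglobin, by C1q in the difference of subsets and by depth of at most 8000 UMIs was chosen after seeing the data.

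Some named values changed direction. Csf3r was 0.0189 without scaling factors. Il1b was -0.12 without a filter and -0.13 (without mouse 2) to 0.21 (without mouse 1) when each mouse was left out, with -0.07 without mouse 3. Cxcl2 was -0.81 with 0 rule UMIs, -1.16 with at least 2000 UMIs, -0.000938 without hemoglobin-rich cells, -0.00984 with DESeq2 size factors, -0.22 without a filter and -1.40 (without mouse 4) to 0.41 (without mouse 1) when each mouse was left out, with -0.38 without mouse 2. Csf1 was -0.39 (without mouse 3) to 0.84 (without mouse 1), with -0.18 without mouse 2. Of 71 named genes past the threshold, 36 passed under every alternative, and 28 lost the call without mouse 5. The 2 groups share no replicate numbers. No paired analysis was possible because mice 3, 4 and 5 are different animals from mice 1 and 2. Depth limits genes of few UMIs, such as Ly6g at day 10, and 2 mice at 48 h limit every test.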

Other observations

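Chil3, a chitinase-like lectin of neutrophils and macrophages, was high in the neutrophils of 1 mouse. It was 107, 2979 and 304 CPM in Siglecf-low cells at day 10 and 125 and 301 CPM at 48 h, and the log2 fold change of 1.86 did not pass (SE 0.99, adjusted p = 0.228). In mouse 4, 53 of 68 low cells held a Chil3 UMI. The positive cells had 165, 2749 and 172 CPM at day 10 and 49.4 and 441 CPM at 48 h. In the macrophages of cluster 0 Chil3 was 18.2, 461 and 40.3 CPM at day 10 and 1483 and 2768 CPM at 48 h, and in T and natural killer cells of cluster 10 it was 0 in all 3 day 10 mice and 3.399 and 9.03 CPM at 48 h, from 1 and 2 UMIs. In the Siglecf-low cells mouse 4 also had the lowest interferon levels among the day 10 mice for Isg15 (19.9 CPM), Slfn4 (79.7 CPM) and Ifi27l2a (4.98 CPM). Among the macrophages of cluster 0 at day 10, mouse 4 was lowest for Isg15 (14.9 CPM) and Ifi27l2a (99.1 CPM) too, but not for Slfn4 (1.66 CPM).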
